A study of Mus musculus with 30 samples.

Results

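The combination CVAD (cyclophosphamide, vincristine, doxorubicin and dexamethasone) was compared with dexamethasone alone in mouse lumbar dorsal root ganglia on day 8. The comparison holds 6 of the 30 libraries of the series, namely the 3 labelled CVAD, day 8 and the 3 labelled dexamethasone, day 8, and they were chosen by these labels and not by a measured value. All were from wild-type male C57BL/6J mice that were perfused with RNAlater, and ganglia L3 to L5 of both sides were taken. Both groups received dexamethasone, and CVAD adds cyclophosphamide, vincristine and doxorubicin. Doses and schedules are not given in the sources used here, so the dexamethasone dose may also differ between the groups. The 3 saline libraries of day 8, and the 3 CVAD and 3 dexamethasone libraries of day 2, are used below as a frame for these 6. The labels do not say whether a library is 1 animal or a pool, so p-values measure the spread between samples, which may be technical.

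Each dorsal root ganglion contains sensory neuron somata wrapped by satellite glia, with Schwann cells, vessels and resident macrophages, and lies inside the vertebral column next to bone and marrow. Vincristine binds tubulin and is known for a neuropathy of long axons, cyclophosphamide and doxorubicin damage DNA and suppress the marrow, and dexamethasone activates the glucocorticoid receptor, a nuclear receptor that induces genes such as Fkbp5, Tsc22d3 and Per1. Neutrophil granules are filled in sequence during maturation in the marrow, azurophil granules with Elane, Mpo and Prtn3 at the promyelocyte stage and specific and gelatinase granules with Camp, Ltf, Ngp, Mmp8 and Mmp9 later.

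Values are TPM (transcripts per 1e+06), a measure per length that sums to the same total in each library, and the depth is unknown. The markers of the labelled tissue were abundant in all 6 libraries. The neuronal genes Tubb3, Prph, Calca and Scn10a ranged over 290.2 to 361.5, 227.1 to 307.7, 232.2 to 296.6 and 230.2 to 288.8 TPM, and the satellite glia gene Fabp7 over 120.4 to 161.8 TPM. Protein-coding genes carried 70.6, 71.2 and 63.4% of the TPM in CVAD and 63.2, 66.7 and 69.9% in dexamethasone. CVAD replicate 3 and dexamethasone replicate 1 were the low libraries of their groups. Replicate numbers here follow the order of the samples in the series and are not given by the labels. All 37 mitochondrial genes, and the abundant neutrophil genes S100a8 and S100a9, were listed at 0 in every library, so a 0 in this table may be a failed estimate.

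Over all genes, limma called none of 25434 between CVAD and dexamethasone on day 8 (adjusted p under 0.05, percent called 0), and the smallest adjusted p was 0.0968. At an unadjusted p under 0.05 there were 1257 genes (4.94%), 791 of them higher in CVAD (3.11%) and 466 lower (1.83%). Higher genes made up 62.9% of these 1257. That share was 46.8% of 1420 genes after median-ratio scaling and 48.7% of 896 among protein-coding genes alone, and with 1 library left out it ran from 51.0% (without CVAD replicate 1) to 73.9% (without CVAD replicate 3). Over all tested genes 60.9% were higher and 38.0% lower, with a median log2 fold change of 0.04. For CVAD against dexamethasone on day 8, each list below is read against this base. This base moved with the processing, to 49.6% higher after median-ratio scaling (median 0) and 52.5% with coding genes alone (median 0.006), and with 1 library left out it ran from 52.2% (median 0.008, without dexamethasone replicate 1) to 66.3% (median 0.08, without CVAD replicate 3). Fold changes are CVAD over dexamethasone on the log2(TPM + 1) scale, with their SE, and understate differences of genes with few TPM. The values of CVAD and dexamethasone libraries did not overlap for 1724 genes that were higher (6.78%) and 873 that were lower (3.43%).

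**Figure D1:**
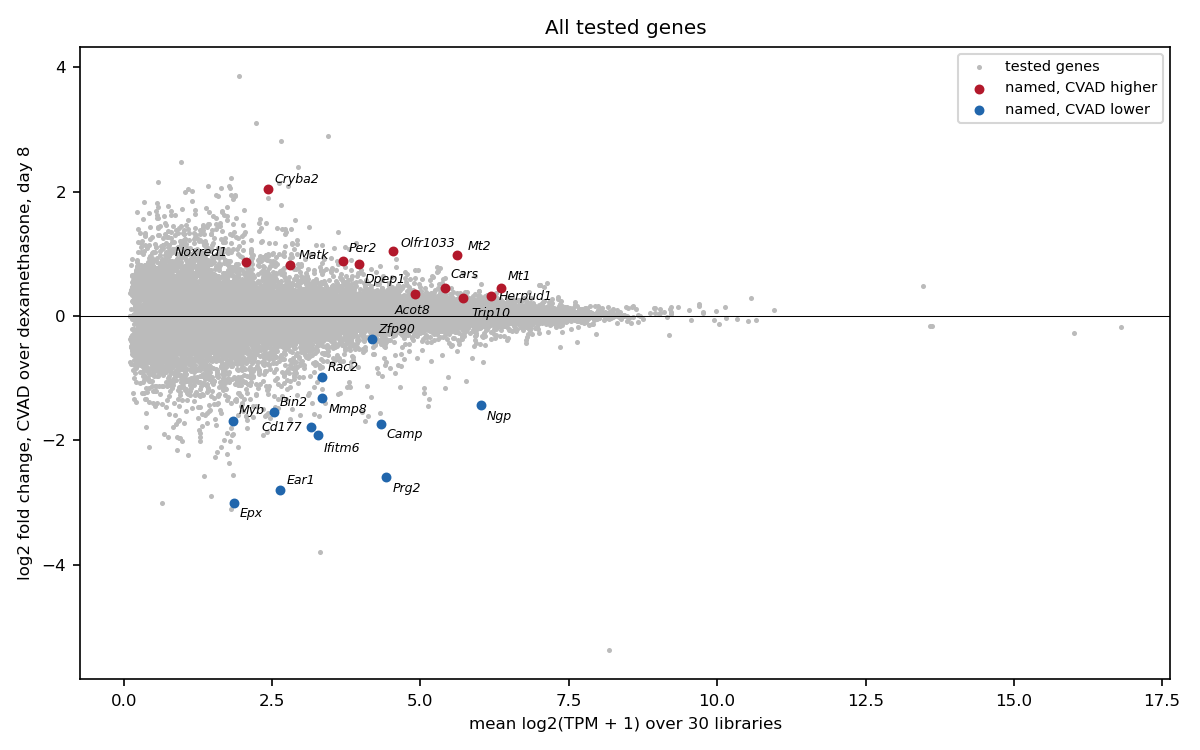
Each point is 1 of the 25434 tested genes, with its mean log2(TPM + 1) over 30 libraries on the x axis and its log2 fold change of CVAD over dexamethasone on day 8 on the y axis. Red and blue points are 12 coding genes in each direction. They have the smallest p among genes with a symbol, no overlap between groups and a mean of at least 5 TPM in the higher group. The blue points include Prg2 at −2.59, Camp at −1.73 and Zfp90 at −0.37, and the red points Mt2 at 0.99, Per2 at 0.89 and Trip10 at 0.28.

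Genes of neutrophil and eosinophil granules had the lowest median log2 fold changes of the 40 lists in CVAD relative to dexamethasone. All 14 tested genes of late neutrophil granules were lower in CVAD, with a median log2 fold change of −1.33. Of these, 13 had an unadjusted p under 0.05 and no overlap between the groups, where 1.83% and 3.43% of all genes were lower. None passed after adjustment over all genes in limma (smallest adjusted p = 0.177). In bulk tissue, fewer cells of a type, less RNA per cell and a different share of neighbouring tissue cannot be told apart.

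Camp (ENSMUSG00000038357, chromosome 9, 109676447 to 109678685 on GRCm39), which encodes the antimicrobial peptide cathelicidin, had 8.80, 8.69 and 9.15 TPM in CVAD, 28.2, 34.2 and 33.2 TPM in dexamethasone and 28.1, 40.3 and 45.6 TPM in saline. The 3 CVAD libraries were close to each other, below every dexamethasone and saline library, and below all 15 other libraries of day 8, which ran from 12.2 to 45.6 TPM. The mean in CVAD was 0.279 times that in dexamethasone (log2 fold change −1.73 ± 0.35, 95% interval −2.45 to −1.01, adjusted p = 0.177 in limma). Ngp, the neutrophilic granule protein, had 38.7, 40.4 and 23.8 TPM in CVAD against 86.8, 92.9 and 96.8 TPM in dexamethasone (log2 fold change −1.43 ± 0.29, adjusted p = 0.177 in limma). Here too all 15 other day 8 libraries, at 45.9 to 120.4 TPM, lay above the 3 CVAD libraries.

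Other genes of this stage had the same order of groups. Ltf, lactoferrin, had 23.6, 24.7 and 11.2 TPM in CVAD against 46.3, 52.6 and 59.9 TPM in dexamethasone. Mmp8, the neutrophil collagenase, had 6.44, 4.63 and 4.10 TPM in CVAD against 13.1, 13.3 and 15.6 TPM in dexamethasone. Cd177, a surface protein of neutrophils, had 4.06, 2.80 and 2.34 TPM against 10.97, 12.1 and 15.7 TPM (log2 fold change −1.78 ± 0.35, adjusted p = 0.177 in limma). In each of the 3 genes the CVAD libraries lay below the dexamethasone libraries. Lyz2, lysozyme, which macrophages also express, was the member with overlapping groups, at 97.2, 102.1 and 91.0 TPM in CVAD against 104.4, 99.3 and 106.8 TPM in dexamethasone. Ly6g, the usual surface marker of mouse neutrophils, was low in both groups, at 1.87, 3.32 and 1.48 TPM against 5.18, 4.34 and 7.93 TPM.

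Members of the C/EBP family of transcription factors control granule genes, and the 250 bases before the start of 3 late granule genes are shown because those genes had lower values together and hold a C/EBP motif. The motif searched was TTGCNNAA on both strands, the sequences are from RefSeq (GRCm38.p6, plus strand, whose coordinates differ from those of the TPM table), and capitals mark the matches.
Ngp, chr9:110419558-110419807: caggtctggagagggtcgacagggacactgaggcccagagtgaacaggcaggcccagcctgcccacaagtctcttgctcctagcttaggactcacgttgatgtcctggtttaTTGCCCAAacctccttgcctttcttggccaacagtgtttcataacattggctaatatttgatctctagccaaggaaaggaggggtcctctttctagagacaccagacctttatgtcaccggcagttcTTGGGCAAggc
Ltf, chr9:111019042-111019291: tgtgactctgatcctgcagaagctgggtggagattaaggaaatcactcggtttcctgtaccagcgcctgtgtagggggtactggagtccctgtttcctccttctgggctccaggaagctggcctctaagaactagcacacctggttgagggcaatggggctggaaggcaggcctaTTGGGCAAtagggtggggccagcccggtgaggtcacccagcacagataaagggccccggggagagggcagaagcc
Mmp8, chr9:7558179-7558428: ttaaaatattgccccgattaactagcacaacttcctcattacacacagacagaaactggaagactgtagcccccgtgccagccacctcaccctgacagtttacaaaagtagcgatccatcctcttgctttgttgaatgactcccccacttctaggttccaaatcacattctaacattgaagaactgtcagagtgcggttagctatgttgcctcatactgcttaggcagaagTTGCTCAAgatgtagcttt
Ngp held 2 matches and the other genes 1 each. The motif was in 7 of the 15 late granule genes with a promoter in the table (46.7%), in 0 of 5 azurophil genes, in 2 of 8 eosinophil genes and in 10.8% of all 27025 genes. The 7 were Lcn2, Ltf, Ly6g, Mmp8, Ngp, Retnlg and S100a9, the last listed at 0 in every library. Camp and Cd177 were not among them. A match describes the letters in this window and is not a measured binding site. Cebpe, the C/EBP factor of late granule maturation, was looked up after the values were seen, and had 1.39, 0 and 0 TPM in CVAD against 3.65, 3.41 and 6.66 TPM in dexamethasone.

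Azurophil granule genes were also lower in CVAD, by a smaller median. All 7 tested members were lower (median −1.06), and 4 of them, Elane, Mpo, Prtn3 and Ctsg, had an unadjusted p under 0.05 with no overlap between the groups. The shares of all genes lower were 1.83% by this p and 3.43% by no overlap. Elane, neutrophil elastase, had 3.505, 2.22 and 5.37 TPM in CVAD, 8.87, 8.13 and 12.3 TPM in dexamethasone and 13.2, 19.2 and 27.1 TPM in saline. Mpo, myeloperoxidase, had 6.40, 6.91 and 5.12 TPM in CVAD, 11.8, 12.6 and 25.96 TPM in dexamethasone and 15.2, 27.8 and 39.2 TPM in saline. For Elane the dexamethasone libraries lay between CVAD and saline with no overlap, whereas for Mpo dexamethasone and saline overlapped. The adjusted p was 0.729 for Elane and 0.740 for Mpo in limma, and without CVAD replicate 2 the median of the list was −0.72, with 2 members at an unadjusted p under 0.05.

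Eosinophil granule genes had the lowest median of all 40 lists, −2.35 over 6 tested genes. Epx (chromosome 11, 87754826 to 87766362), eosinophil peroxidase, was listed at 0 in all 3 CVAD libraries, at 5.86, 4.35 and 12.99 TPM in dexamethasone and at 6.75, 5.79 and 3.46 TPM in saline (adjusted p = 0.136 in limma). It was also at 0 in 1 of the other 15 day 8 libraries, a cyclophosphamide library. Prg2, the major basic protein of eosinophils, had 10.99, 10.4 and 1.97 TPM in CVAD against 44.5, 29.7 and 61.8 TPM in dexamethasone (log2 fold change −2.59 ± 0.59, adjusted p = 0.319 in limma). Ear1 and Ear2, ribonucleases of eosinophil granules, had log2 fold changes of −2.79 ± 0.60 and −1.27 ± 0.55, and that of Ear2 was −0.77 without CVAD replicate 3. Groups did not overlap for 5 of the 6 genes, where 3.43% of all genes were lower without overlap. The sixth member, Prg3, was listed at 0 in all 6 libraries. The median of the list was −1.97 without CVAD replicate 3, whose Prg2 value was the lowest, and −2.69 without dexamethasone replicate 2, and it was −1.27 over all 9 listed genes with no filter on low values.

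**Figure D2:**
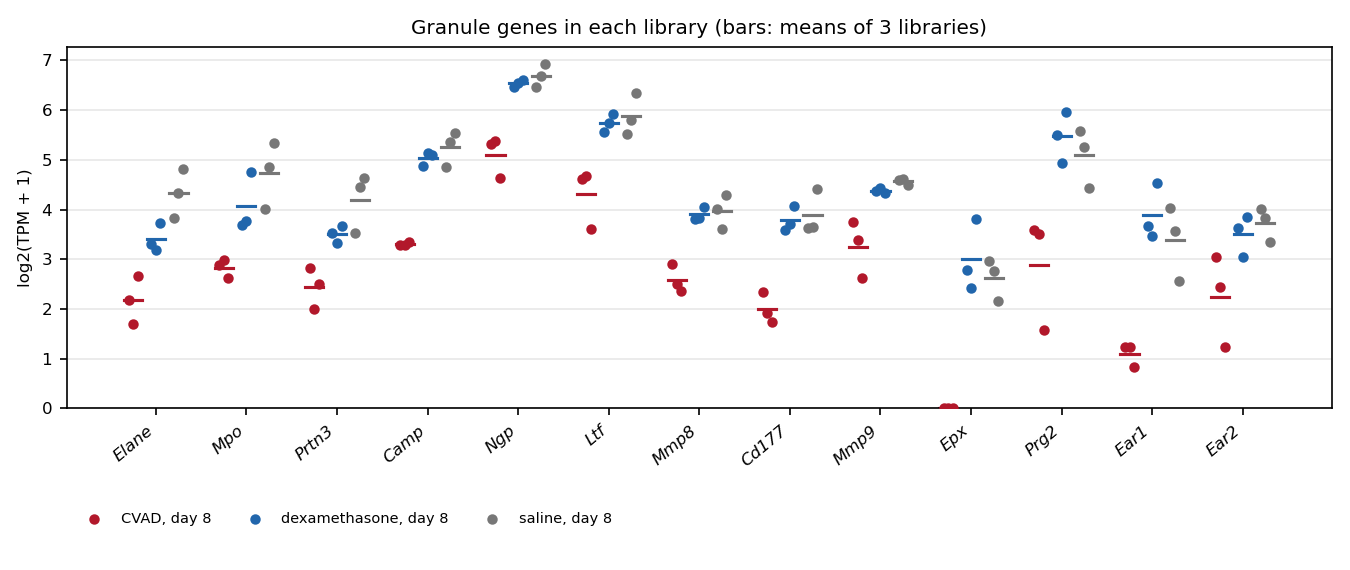
The y axis gives log2(TPM + 1) of 13 granule genes, with 1 point per library and a bar at the mean of 3 libraries for CVAD (red), dexamethasone (blue) and saline (grey) on day 8. From left to right come azurophil genes (Elane to Prtn3), late neutrophil granule genes (Camp to Mmp9) and eosinophil genes (Epx to Ear2). In Camp, Ngp, Ltf, Mmp8 and Cd177 the 3 CVAD points lie below the 3 dexamethasone points, and Epx is at 0 in all 3 CVAD libraries.

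Of the 12 coding genes named on the lower side by p, 7 belong to the granule lists (Epx, Cd177, Ngp, Camp, Ear1, Prg2, Mmp8). The azurophil, late granule and eosinophil lists held 7, 14 and 6 tested genes, beside 15314 tested coding genes in all. They were chosen with earlier results of these data known. Some of the other genes named on the lower side are known from blood cells. Myb, a transcription factor of blood progenitors, had 1.46, 0.666 and 0.889 TPM in CVAD against 3.79, 6.03 and 6.59 TPM in dexamethasone (log2 fold change −1.68 ± 0.41). Rac2, a GTPase of the neutrophil oxidase, had 6.85, 4.84 and 4.67 TPM against 11.8, 11.9 and 11.1 TPM (−0.98 ± 0.24). Bin2 and Ifitm6 had log2 fold changes of −1.54 ± 0.34 and −1.92 ± 0.47, and Zfp90, a zinc finger gene, −0.37 ± 0.08. The adjusted p of these 5 genes ran from 0.282 to 0.386 in limma.

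The same contrast on day 2, in other libraries, pointed the other way for granule genes. Between CVAD and dexamethasone on day 2 all 14 late granule genes were higher in CVAD (median 0.54). Also higher were 6 of 7 azurophil genes (median 0.45) and 5 of 6 eosinophil genes (median 0.38). Over all genes 53.2% were higher and 45.9% lower on day 2 (median 0.012). At an unadjusted p under 0.05 there were 4 late granule genes higher on day 2, where 2.15% of all genes were (931 genes, 3.66%, in both directions), and none passed after adjustment in limma. Camp had 17.6, 34.6 and 26.3 TPM in CVAD against 24.4, 16.8 and 10.4 TPM in dexamethasone on day 2, and these groups overlapped. The difference between the days was tested in the same model. For 12 of the 14 late granule genes the day 8 difference was lower than the day 2 difference at an unadjusted p under 0.05, where 2.01% of all genes were, and limma called no gene after adjustment (Camp −2.33 ± 0.49, Ngp −1.91 ± 0.41, adjusted p = 0.404 for each). Over all genes 1141 (4.49%) had an unadjusted p under 0.05 for this difference, 2.47% above and 2.01% below 0.

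Against saline on day 8, which shares libraries with the comparison and is given side by side only, the late granule median was −1.41 for CVAD and −0.18 for dexamethasone. The azurophil median was −1.75 for CVAD and −0.61 for dexamethasone, and the eosinophil median −1.94 for CVAD and 0.38 for dexamethasone. Over all genes the median was 0.017 for CVAD and −0.023 for dexamethasone. Limma called no gene between CVAD and saline (1522 genes, 5.98%, at an unadjusted p under 0.05) or between dexamethasone and saline (830 genes, 3.26%).

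**Figure D3:**
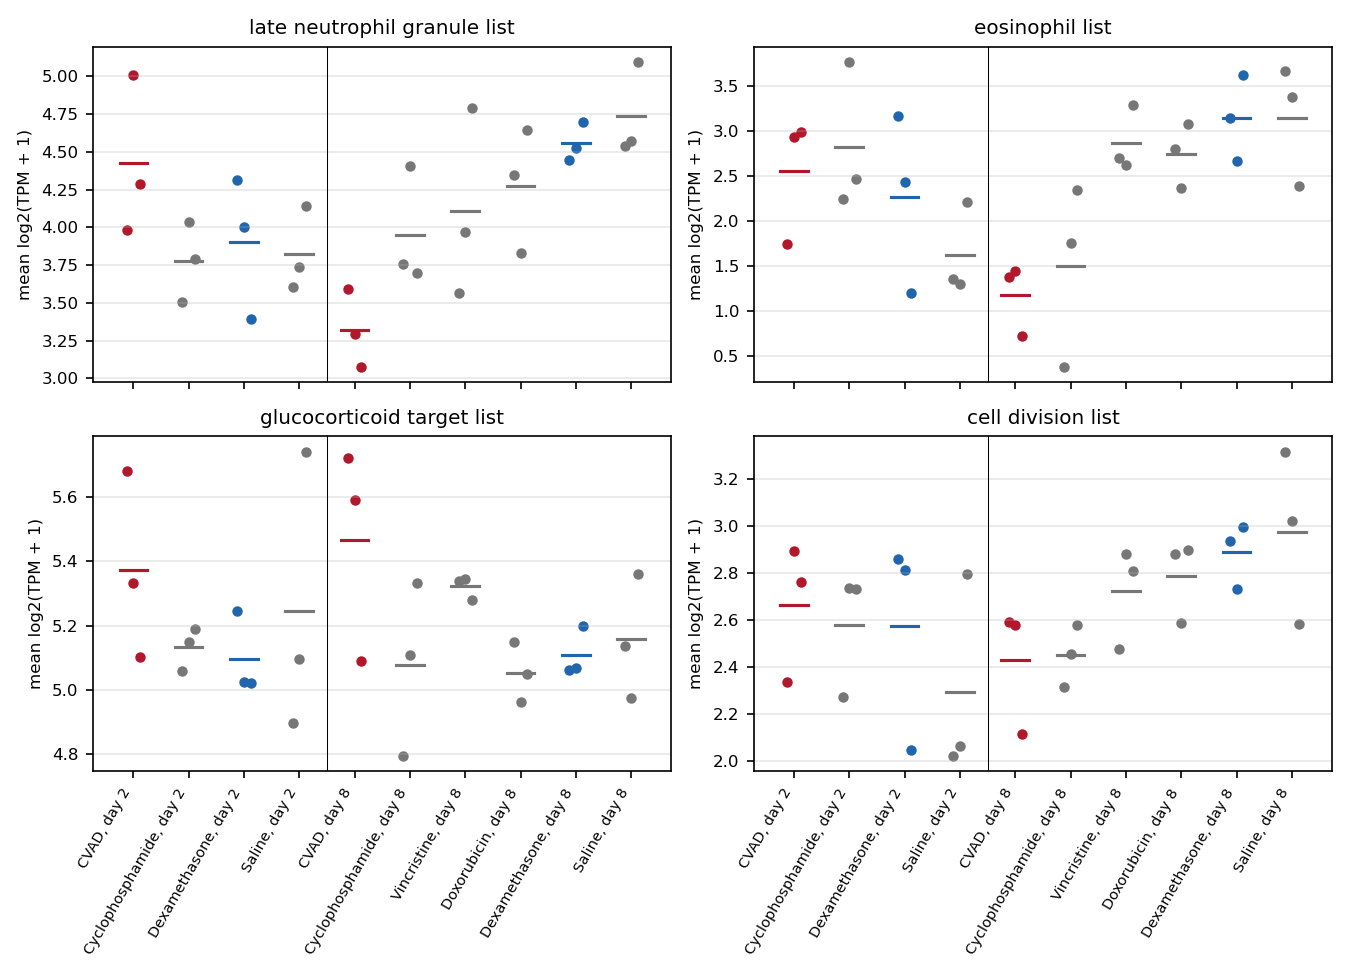
Each panel plots the mean log2(TPM + 1) over the tested genes of 1 list in each library, with a bar at the mean of 3 libraries, for the 4 groups of day 2 and the 6 groups of day 8. CVAD is red and dexamethasone blue on both days. On day 8 the late granule means were 3.59, 3.29 and 3.08 in CVAD against 4.45, 4.53 and 4.70 in dexamethasone, whereas the day 2 groups overlap.

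Among other blood lineages, all 13 tested B lineage genes were lower (median −0.61). Of these, 5 had an unadjusted p under 0.05, where 1.83% of all genes were lower. Igkc, the kappa light chain, had 17.1, 12.1 and 2.76 TPM in CVAD against 17.4, 36.2 and 35.7 TPM in dexamethasone (log2 fold change −1.60 ± 0.58, and −0.93 without CVAD replicate 3). Vpreb3, a gene of B cell precursors, was listed at 0 in all 3 CVAD libraries and at 1.32, 6.09 and 2.18 TPM in dexamethasone. The count at an unadjusted p under 0.05 was 1 without CVAD replicate 3, and the median was −1.09 without dexamethasone replicate 1. The B lineage genes were lower in CVAD on day 2 as well, 12 of 13 with a median of −0.87.

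Genes of the erythroid (red cell) list were lower for 13 of 14 members (median −0.92). Beside 1.83% of all genes, 2 members were lower at an unadjusted p under 0.05. These were Hemgn, at 0.882, 1.49 and 0.933 TPM in CVAD against 9.20, 3.34 and 4.84 TPM in dexamethasone, and Epb42, protein 4.2 of the red cell membrane, at 1.74, 0.944 and 0 TPM against 4.09, 2.52 and 4.41 TPM. The summed erythroid TPM was 288.0, 216.9 and 200.3 in CVAD and 323.3, 254.5 and 321.3 in dexamethasone, which overlap. The erythroid count at an unadjusted p under 0.05 was 0 without CVAD replicate 3 or without dexamethasone replicate 1, and 4 without CVAD replicate 1. The erythroid median was −0.58 without CVAD replicate 3 and −0.41 over the members that reached a TPM of 5. T and NK cell genes were lower for 5 of 8 (median −0.22, and 0.01 without CVAD replicate 3). The MHC class II list was lower for 8 of 10 genes with none at an unadjusted p under 0.05 (median −0.25, and 0.02 without CVAD replicate 3).

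Resident macrophage genes did not share a direction, with 9 of 20 higher and 11 lower in CVAD (median −0.04). Itgam, an integrin of neutrophils and macrophages, had 2.73, 5.50 and 1.49 TPM in CVAD against 5.40, 5.73 and 13.5 TPM in dexamethasone, and the groups overlapped. Lyve1, a receptor of perivascular macrophages and lymphatic vessels, had 14.4, 15.7 and 16.1 TPM in CVAD against 8.64, 8.69 and 9.08 TPM in dexamethasone (log2 fold change 0.74 ± 0.20, adjusted p = 0.573 in limma). Cd163, a scavenger receptor of the same macrophages, had 24.8, 16.02 and 11.2 TPM against 9.60, 9.16 and 9.04 TPM. For both genes every CVAD library lay above the dexamethasone libraries. They were the 2 list members without overlap on the higher side, and 2 other members did not overlap on the lower side. Over all genes these shares were 6.78% and 3.43%. Il1b, an inflammatory cytokine, had 0.795, 0 and 0 TPM in CVAD against 1.87, 2.49 and 2.73 TPM in dexamethasone.

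Markers of neighbouring tissues varied within the groups, and their part in these results was not tested. Some members of these lists are also in lists of the ganglion's own cells, so the sums do not measure neighbouring tissue alone. Spp1 (bone) and Pvalb (muscle) are also in the large diameter neuron list. Mag and Cnp (spinal cord) are also in the myelinating Schwann list, and Mmp9 (bone) is also a late granule gene. Genes of the bone and cartilage list were lower for 11 of 18 members (median −0.09, and 0.14 without CVAD replicate 3), and their summed TPM was 233 to 371 in CVAD and 253 to 385 in dexamethasone. Bglap, osteocalcin of bone, was at 0 in CVAD replicate 3. Genes of the adipocyte list were lower for 10 of 11 (median −0.47, and −0.04 without CVAD replicate 3), with a summed TPM of 141 to 265 in CVAD and 238 to 276 in dexamethasone. Genes of the skeletal muscle list were lower for 12 of 16 (summed TPM 283 to 785 in CVAD and 151 to 1146 in dexamethasone), and those of the spinal cord list were higher for 6 and lower for 6 of 12 (summed TPM 233 to 325 in CVAD and 201 to 359 in dexamethasone). For the late neutrophil granule list the summed TPM was 203 to 268 in CVAD and 436 to 505 in dexamethasone.

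Genes of cell division were lower in CVAD than in dexamethasone. Of 36 tested members 31 were lower (median −0.40). At an unadjusted p under 0.05 there were 7, where 1.83% of all genes were lower. Without overlap there were 17, where 3.43% of all genes were lower. Mki67, a marker of cycling cells, had 6.54, 6.51 and 1.78 TPM in CVAD against 14.6, 11.04 and 14.2 TPM in dexamethasone (log2 fold change −1.40 ± 0.48, and −0.92 without CVAD replicate 3). Top2a, the topoisomerase of S and G2 phase that doxorubicin targets, had 8.60, 6.39 and 1.78 TPM against 19.7, 14.6 and 14.96 TPM (−1.57 ± 0.58, and −1.04 without CVAD replicate 3). Plk1, a mitotic kinase, had 2.23, 3.72 and 1.80 TPM against 5.14, 5.70 and 5.47 TPM (−0.88 ± 0.28). In all 3 genes the CVAD libraries lay below the dexamethasone libraries, and the adjusted p was 0.689 to 0.833 in limma. CVAD replicate 3 was the lowest of the 3, and without it the median was −0.25, with 1 member at an unadjusted p under 0.05. The p53 target list had 20 of 26 genes higher (median 0.08), 1 at an unadjusted p under 0.05, where 3.11% of all genes were. After median-ratio scaling 16 of 26 were higher (median 0.035), and the median ran from 0.046 without CVAD replicate 1 to 0.14 without CVAD replicate 3. Aen, a nuclease that p53 induces, had 55.1, 58.7 and 52.2 TPM in CVAD against 32.0, 28.8 and 34.4 TPM in dexamethasone (0.78 ± 0.24, adjusted p = 0.629 in limma), and in saline it was at 35.4, 31.0 and 82.7 TPM. Cdkn1a, the inhibitor p21, had 109.6, 114.4 and 90.0 TPM in CVAD and 95.9, 79.6 and 118.1 TPM in dexamethasone, with overlapping groups.

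Glucocorticoid target genes were higher in CVAD than in dexamethasone, and both groups received the steroid, at doses that are not given in the sources used here. Of 31 tested members 28 were higher and 3 lower (median 0.29), and 9 of the higher ones had an unadjusted p under 0.05, where 3.11% of all genes were. The lower member with an unadjusted p under 0.05 was Lcn2, which is also in the late granule list, at 22.9, 16.2 and 16.9 TPM in CVAD against 42.1, 49.3 and 53.5 TPM in dexamethasone. After median-ratio scaling 27 were higher and 4 lower, with a median of 0.24.

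Metallothioneins, metal-binding proteins that glucocorticoids and metals induce, were separated between the groups. Mt2 had 90.4, 97.0 and 59.5 TPM in CVAD, 41.9, 36.9 and 41.9 TPM in dexamethasone and 40.2, 29.7 and 46.5 TPM in saline (log2 fold change against dexamethasone 0.99 ± 0.25, adjusted p = 0.493 in limma). Mt1 had 110.1, 98.5 and 89.0 TPM in CVAD against 67.8, 68.2 and 80.7 TPM in dexamethasone (0.45 ± 0.12). Groups did not overlap for either gene. The 250 bases before the start of Mt1 (RefSeq, GRCm38.p6, plus strand) are shown because they hold 1 match to the core of the glucocorticoid response element, ACANNNTGT, which reads the same on both strands and is in capitals.
Mt1, chr8:94178839-94179088: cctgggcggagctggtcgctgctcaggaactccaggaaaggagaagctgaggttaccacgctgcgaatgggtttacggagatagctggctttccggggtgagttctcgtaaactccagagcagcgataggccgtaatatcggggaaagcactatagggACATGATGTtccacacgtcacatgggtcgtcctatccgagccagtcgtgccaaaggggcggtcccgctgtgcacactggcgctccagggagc
This core was found in 6 of 27 glucocorticoid target genes with a promoter in the table (22.2%) and in 6.76% of all genes. The 6 were Fam107a, Glul, Lcn2, Map3k6, Mt1 and Sgk1. Mt2, Per1 and Fkbp5 were thus not among them, whereas Lcn2, which was lower in CVAD, was. Here too a match is not a measured binding site.

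The steroid targets most used as reporters varied between the CVAD libraries. Fkbp5, a chaperone of the receptor, had 100.3, 95.3 and 56.8 TPM in CVAD against 42.1, 58.6 and 57.2 TPM in dexamethasone (0.64 ± 0.26, adjusted p = 0.903 in limma). Zbtb16, a transcription factor that steroids induce, had 68.2, 61.1 and 15.1 TPM against 19.7, 25.5 and 17.9 TPM, and Tsc22d3, known as GILZ, had 146.3, 151.6 and 103.0 TPM against 101.7, 109.7 and 112.0 TPM. Per1 had 65.6, 63.7 and 31.7 TPM in CVAD against 29.5, 29.2 and 32.8 TPM in dexamethasone. In these 4 genes CVAD replicates 1 and 2 lay above all dexamethasone libraries, whereas replicate 3 lay among them or, for Zbtb16, below them. Sgk1, a kinase of ion transport, had 77.4, 58.5 and 40.3 TPM against 36.3, 26.1 and 37.2 TPM, without overlap. Klf15 had 45.1, 39.4 and 21.6 TPM against 19.8, 15.98 and 21.9 TPM, and Hif3a 20.5, 16.2 and 2.52 TPM against 2.55, 5.26 and 4.11 TPM. Without CVAD replicate 3 the list median was 0.41, with 30 of 31 genes higher and 17 of these at an unadjusted p under 0.05, and without replicate 1 it was 0.21, with 3 such genes.

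The list of the receptors and their partners had 5 of 10 genes higher and 5 lower (median −0.01). Nr3c1, the glucocorticoid receptor, had 53.8, 58.8 and 54.6 TPM in CVAD against 57.6, 53.5 and 60.0 TPM in dexamethasone (log2 fold change −0.03 ± 0.12). Side by side against saline, the target list median was 0.23 for CVAD, with 28 of 31 higher. It was −0.05 for dexamethasone, with 12 of 31 higher. Over all genes 54.2% were higher for CVAD against saline (median 0.017) and 43% for dexamethasone against saline (median −0.023). On day 2, in other libraries, CVAD was higher than dexamethasone for 28 of 31 targets (median 0.22). Of these, 2 had an unadjusted p under 0.05, where 2.15% of all genes were higher. Over all genes on day 2, 53.2% were higher (median 0.012).

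**Figure D4:**
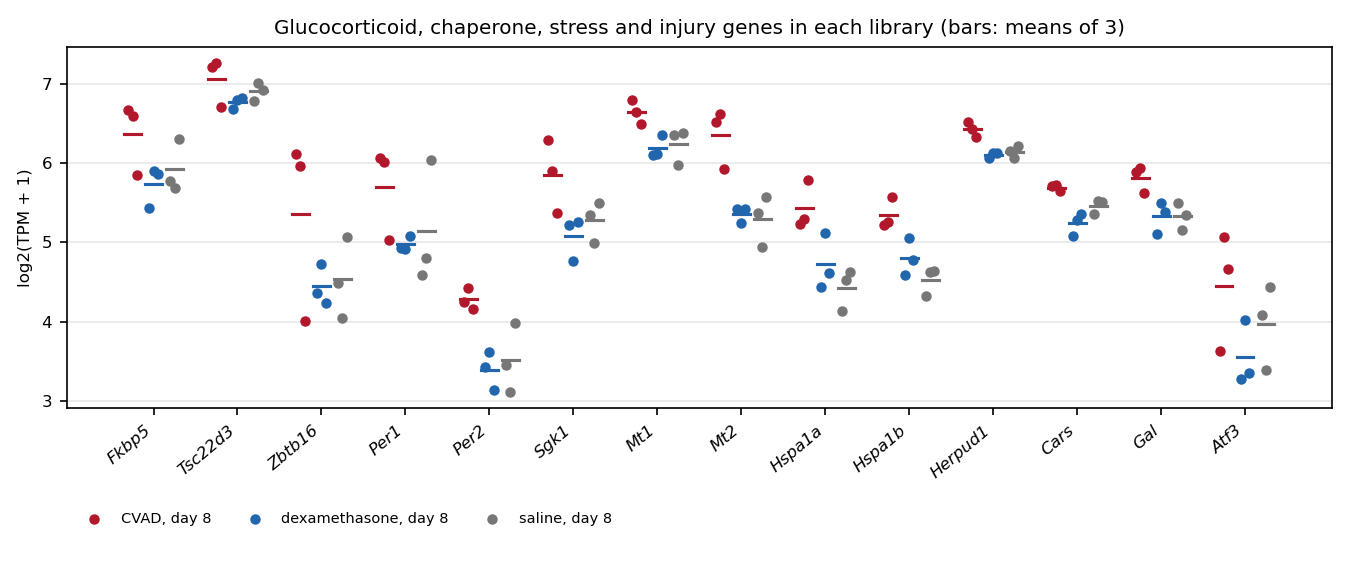
The y axis gives log2(TPM + 1) of 14 genes, with 1 point per library and a bar at the mean of 3 libraries for CVAD (red), dexamethasone (blue) and saline (grey) on day 8. Glucocorticoid targets run from Fkbp5 to Mt2, followed by chaperone, stress and injury genes. The third CVAD library lies near the dexamethasone points in Fkbp5, Tsc22d3, Zbtb16 and Per1, whereas in Per2, Mt2, Hspa1a, Herpud1, Cars and Gal the CVAD and dexamethasone points do not overlap.

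Circadian clock genes were higher for 15 of 18 tested members (median 0.26). At an unadjusted p under 0.05 there were 5, where 3.11% of all genes were higher. Per2, a repressor of the clock that is also a glucocorticoid target, had 18.1, 20.6 and 16.97 TPM in CVAD against 9.79, 11.3 and 7.85 TPM in dexamethasone, and all 15 other day 8 libraries (7.69 to 14.9 TPM) lay below the CVAD libraries (log2 fold change 0.89 ± 0.22, adjusted p = 0.383 in limma). Per3 had 35.2, 32.9 and 35.8 TPM against 27.9, 19.9 and 27.2 TPM, and Nr1d2, the repressor REV-ERB beta, 62.6, 55.9 and 60.8 TPM against 44.6, 46.1 and 45.9 TPM. These 3 genes did not overlap between the groups, and CVAD replicate 3 stood with the other CVAD libraries. The hour of tissue collection is not given in the sources used here. With each library left out in turn the median ran from 0.21 to 0.28, and the count at an unadjusted p under 0.05 from 2 to 6.

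Genes of stress to the endoplasmic reticulum and of the integrated stress response were higher for all 18 members (median 0.13). Of these, 2 had an unadjusted p under 0.05, where 3.11% of all genes were higher. After median-ratio scaling 15 were higher and 3 lower (median 0.09). Herpud1, a gene of protein degradation at the endoplasmic reticulum, had 90.7, 85.3 and 79.0 TPM in CVAD against 65.9, 68.7 and 69.1 TPM in dexamethasone (log2 fold change 0.32 ± 0.09, adjusted p = 0.549 in limma). Creld2, an isomerase induced by unfolded proteins, had 25.96, 33.8 and 39.1 TPM against 23.3, 23.5 and 25.3 TPM, and Hspa5, the chaperone BiP, 125.3, 147.8 and 136.2 TPM against 118.2, 124.0 and 121.8 TPM. In all 3 the groups did not overlap. Cars, the cysteinyl-tRNA synthetase, had 51.3, 51.7 and 48.9 TPM in CVAD against 32.8, 37.8 and 40.1 TPM in dexamethasone, above all 15 other day 8 libraries (32.8 to 44.8 TPM; 0.45 ± 0.11, adjusted p = 0.383 in limma).

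Heat shock chaperones were higher for 13 of 16 genes (median 0.11), 4 at an unadjusted p under 0.05, where 3.11% of all genes were. Hspa1a, an inducible HSP70, had 36.4, 38.3 and 54.2 TPM in CVAD against 20.8, 33.6 and 23.5 TPM in dexamethasone, and the CVAD libraries lay above all 15 other day 8 libraries, which reached 33.6 TPM (0.71 ± 0.23, adjusted p = 0.689 in limma). Its near-identical copy Hspa1b had 36.3, 37.1 and 46.5 TPM against 23.02, 32.4 and 26.4 TPM, and whether reads were shared between the copies was not tested. On day 2 the chaperone list was lower in CVAD for 15 of 16 genes, 5 at an unadjusted p under 0.05 where 1.51% of all genes were. For Hspa1a the day 8 difference was above the day 2 difference by 1.19 ± 0.32 (adjusted p = 0.641 in limma). The chaperone median of day 8 was 0.03 without dexamethasone replicate 1, which was the lowest dexamethasone library for Hspa1a.

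Genes that injured sensory neurons induce were higher for 16 of 19 members (median 0.15). At an unadjusted p under 0.05 there were 4, where 3.11% of all genes were higher. Gal, the neuropeptide galanin, had 58.1, 60.0 and 48.2 TPM in CVAD against 33.5, 44.3 and 40.9 TPM in dexamethasone, without overlap (0.48 ± 0.17, adjusted p = 0.805 in limma). Atf3, a transcription factor of injured neurons, had 11.5, 32.6 and 24.4 TPM against 8.74, 15.3 and 9.26 TPM, and CVAD replicate 1 lay within the dexamethasone range. Jun had 69.3, 81.5 and 73.9 TPM against 59.9, 69.9 and 61.4 TPM, and Ecel1, a protease of injured neurons, 4.46, 11.7 and 3.71 TPM against 2.39, 2.55 and 1.30 TPM. CVAD replicate 2 had the highest value in all 4 genes, and the groups overlapped for Atf3 and Jun. The median was 0.09 without CVAD replicate 2, with 1 gene at an unadjusted p under 0.05, and 0.03 without dexamethasone replicate 1, with none. On day 2 the list had 9 genes higher and 10 lower in CVAD.

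Nociceptor genes had a median near that of all genes, and its direction turned with the scaling. The list had 16 of 20 genes higher (median 0.03) and 9 of 20 higher after median-ratio scaling (median −0.01), and 4 of 20 without dexamethasone replicate 1. Calca, the precursor of CGRP, had 264.9, 296.6 and 232.2 TPM in CVAD against 241.9, 264.2 and 279.4 TPM in dexamethasone (log2 fold change 0.01 ± 0.12). Trpv1, the capsaicin receptor, had 91.4, 95.1 and 72.3 TPM against 77.0, 90.8 and 89.3 TPM (0.00 ± 0.13). Both groups overlapped for these genes, and their log2 fold changes were below 0 after median-ratio scaling. Trpa1, the irritant receptor, was the nociceptor gene with an unadjusted p under 0.05, at 48.3, 47.8 and 46.3 TPM in CVAD against 36.9, 40.5 and 42.9 TPM in dexamethasone (0.24 ± 0.10, adjusted p = 0.966 in limma). Over all genes 3.11% were higher at that threshold.

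Tubulins, the targets of vincristine, had 9 of 15 genes higher and 6 lower (median 0.03), or 6 higher and 9 lower after median-ratio scaling. Tubb3, the neuronal beta tubulin, had 336.6, 361.5 and 291.1 TPM in CVAD against 290.2, 343.7 and 335.7 TPM in dexamethasone (0.03 ± 0.11). Axonal transport genes had 14 of 23 higher, or 3 of 23 after median-ratio scaling, and no gene of the tubulin, transport, neurofilament or axon degeneration lists had an unadjusted p under 0.05. Large-diameter neuron genes were higher for 15 of 16 (median 0.06), for 10 of 16 after that scaling, and for 9 of 16 without CVAD replicate 1 (median 0.02). That median was 0.01 without dexamethasone replicate 1 and 0.12 without CVAD replicate 3. The myelinating Schwann cell, satellite glia, endothelial and collagen lists had medians of 0.05, 0.02, 0.01 and 0.04, near the 0.04 of all genes. Cholesterol synthesis genes were lower for all 18 members by a small amount (median −0.07), none at an unadjusted p under 0.05, but without CVAD replicate 3 the count was 11 higher and 7 lower.

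The 12 coding genes named on the higher side by p include Mt1, Mt2, Per2, Herpud1 and Cars, described above. Dpep1, a dipeptidase, had 23.2, 15.7 and 22.3 TPM in CVAD against 10.6, 12.6 and 9.50 TPM in dexamethasone (0.83 ± 0.20, adjusted p = 0.383 in limma). Matk, a kinase that inhibits Src kinases, had 10.2, 8.18 and 8.96 TPM against 4.84, 4.81 and 4.49 TPM (0.82 ± 0.20). Olfr1033, an olfactory receptor gene, had 40.9, 34.6 and 48.8 TPM against 14.2, 20.99 and 24.2 TPM (1.05 ± 0.27). Saline libraries lay between the CVAD and dexamethasone means for these 3 genes, with Dpep1 at 15.3, 12.2 and 18.8 TPM, Matk at 7.75, 5.56 and 7.76 TPM and Olfr1033 at 20.3, 22.9 and 30.5 TPM. Cryba2, a crystallin gene, had 4.80, 4.17 and 7.96 TPM in CVAD, was listed at 0, 2.87 and 0 TPM in dexamethasone, and had 7.14, 6.96 and 5.56 TPM in saline. Noxred1, Acot8 and Trip10 had log2 fold changes of 0.87 ± 0.23, 0.36 ± 0.10 and 0.28 ± 0.08.

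**Figure D5:**
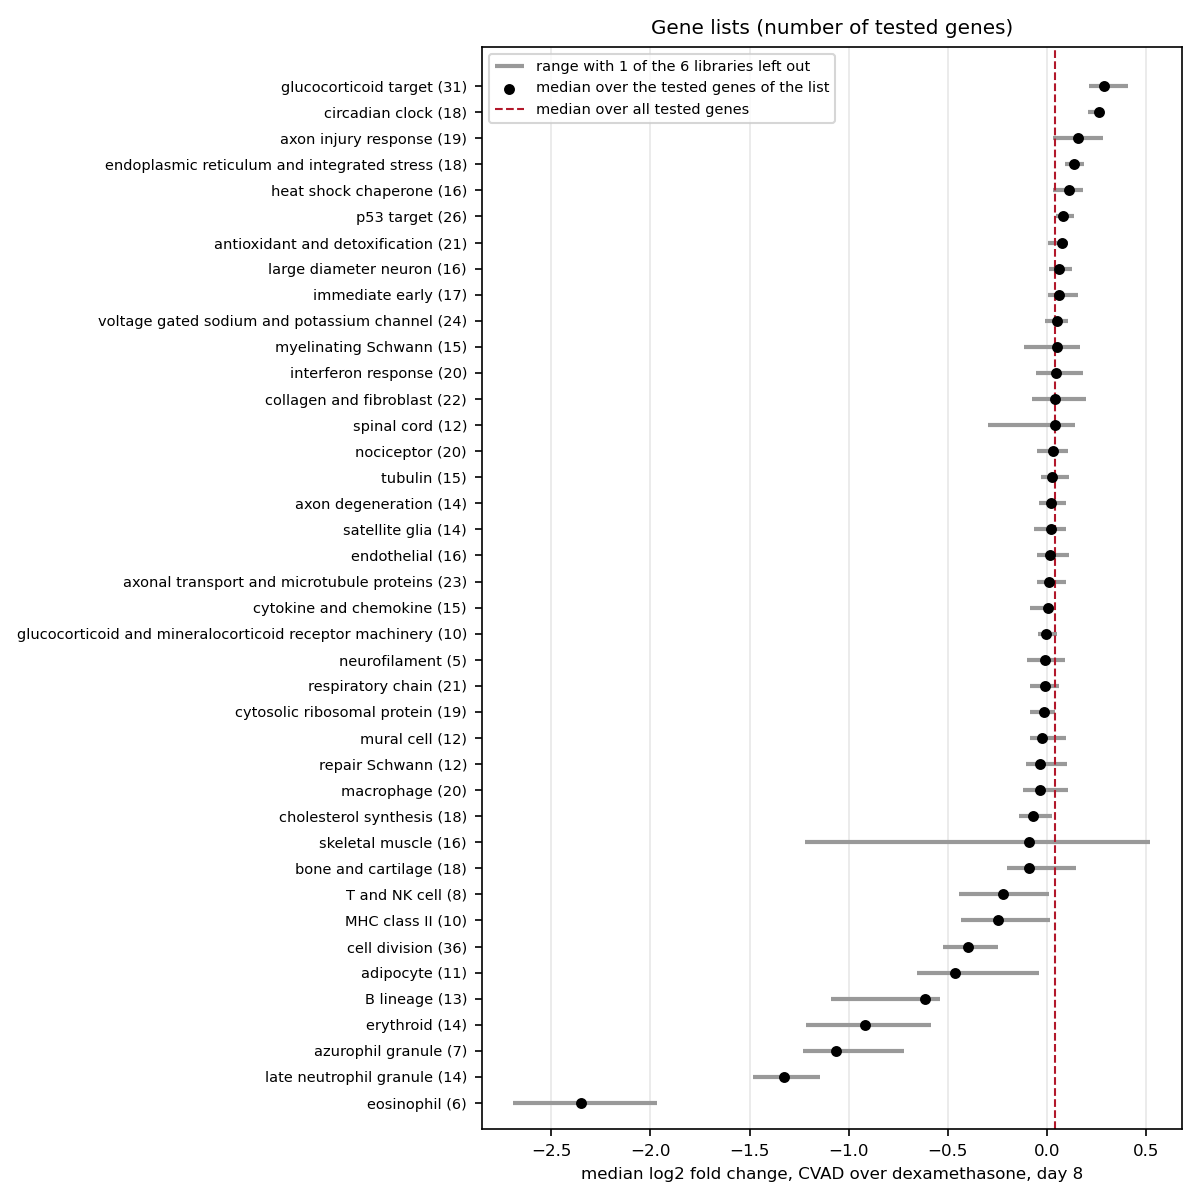
Points are the median log2 fold change of CVAD over dexamethasone on day 8 over the tested genes of each of 40 lists, with the number of tested genes in brackets. Grey bars give the range of the median with 1 of the 6 libraries left out, and the dashed line is the median of all tested genes (0.04). The eosinophil (−2.35), late granule (−1.33) and azurophil (−1.06) medians lie furthest from the line, and the skeletal muscle bar is the widest (−1.22 to 0.52).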

How the data were processed

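RNA-seq libraries were stranded and depleted of ribosomal RNA, per the labels' protocols. StringTie 2.2.1, STAR 2.7.10b and FastQC 0.12.1 were used per the submitters' processing notes, which list GRCm39 beside mm10 and do not say what each build was used for. The authors deposited 1 table of TPM per gene, with gene coordinates on GRCm39, and the number of reads is not given in the sources used here, so no counting error was computed. TPM sums to 1e+06 per library, so a rise of abundant RNAs lowers all others.

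A gene was tested where 3 or more of the 30 libraries had a TPM of 1 or above (25434 of 56686 genes). In limma 3.58.1 (R 4.3.3), 1 mean for each of 10 groups was fitted to log2(TPM + 1), with moderated variances and a trend. Two-sided p-values were adjusted over all tested genes of a comparison (Benjamini-Hochberg), with a threshold of 0.05. The procedure was tested on simulated data. These had independent noise for each gene and library and no shift shared by a whole library, so they do not cover such shifts.

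The members of the comparison and the 40 gene lists (679 genes, of which 676 were in the table and 630 tested) were chosen with earlier results of these data known, and the lists share some genes. Lists are described by counts and medians, without a test. Named genes are, among coding genes with a symbol whose groups did not overlap and whose higher group averaged at least 5 TPM, the 12 of smallest p in each direction, then in each list the 3 genes with the lowest p, and a fixed set (Fkbp5, Tsc22d3, Zbtb16, Per1, Nr3c1, Cdkn1a, Atf3, Gal, Mki67, Calca, Trpv1, Tubb3, Elane, Mpo, Camp, Ngp). Other list members were named after their values were seen, as were S100a8, S100a9 and Cebpe. For 77 repeated symbols the entry of highest mean was used. Ahsp and Junb were not analysed. Alternatives were another pseudocount (0.1), other filters, median-ratio scaling, coding genes alone, library weights, fewer libraries in the model, and each library left out. Figures were drawn with matplotlib 3.10.9.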

Additional observations from a re-analysis of the deposited data

How the results depend on the processing

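No paired analysis was possible because the labels give the groups no shared replicate numbers. Between CVAD and dexamethasone on day 8 the count of genes called was 2 with a pseudocount of 0.1, 1 with no filter and 1 with day 8 libraries alone. It was 3 with the 6 libraries alone (Rmrp, Gm12806 and Camp, the last at an adjusted p of 0.0407 in limma), and 0 to 2 with 1 library left out. No other setting called a gene of the granule lists in this comparison. Between CVAD and saline the count was 2 with no filter, 6 with median-ratio scaling, 7 with coding genes alone and 4 with library weights. It was 4 with day 8 alone, and 0 to 3 with 1 library left out. Camp, Ngp, Cd177 and Elane, all of the granule lists, were called lower in CVAD than in saline in some of these settings. These were median-ratio scaling, coding genes alone and library weights. Between dexamethasone and saline the count was 1 with a pseudocount of 0.1, 1 with no filter, 1 with day 8 alone, and 0 to 3 with 1 library left out. On day 2 it was 6 with no filter and 0 to 2 with 1 library left out, and for the difference between days 0 to 1. The cause was not tested.

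Genes near 0 changed sign. Under median-ratio scaling and coding genes alone Calca was at −0.034 and −0.027, Trpv1 at −0.041 and −0.034, and Tubb3 at −0.018 and −0.010. With 1 library left out Calca ran from −0.075 to 0.10, Trpv1 from −0.072 to 0.12, Tubb3 from −0.048 to 0.11, Cdkn1a from −0.031 to 0.25 and Nr3c1 from −0.077 to 0.0042. Of the 40 list medians, 33 stayed within the spread between libraries under every alternative run, and 7 did not under at least 1 (azurophil, eosinophil, erythroid, B lineage, interferon, adipocyte, antioxidant). This spread is each list's own SD within the groups, so a more variable list may shift further and still stay within it. With 1 library left out, the skeletal muscle and MHC class II medians, among the 33, ran from −1.22 to 0.52 and −0.43 to 0.02. Azurophil and eosinophil, among the 7, ran from −1.23 to −0.72 and −2.69 to −1.97. With a pseudocount of 0.1 the erythroid median was −1.55 and the B lineage median −1.04. Groups of 3 and an unknown depth limit what can be shown for genes with few TPM.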

Other observations

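Across gene types, 62 of 859 tested miRNA models (7.22%) and 12 of 149 misc_RNA models (8.05%) had an unadjusted p under 0.05 between CVAD and dexamethasone on day 8, beside 705 of 15314 coding genes (4.60%). The gene of smallest p was a second entry of Rmrp, the RNA of a mitochondrial RNA processing enzyme, chosen after its values were seen. It had 0.497, 0.176 and 0.142 TPM in CVAD against 8.96, 9.68 and 8.72 TPM in dexamethasone (adjusted p = 0.0968 in limma). With day 8 libraries alone, an entry of Rmrp was called lower in CVAD than in dexamethasone (adjusted p = 1.18e-05 in limma). In the same setting Rmrp was called higher in dexamethasone than in saline (adjusted p = 8.76e-06 in limma). The other entry is not described here.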
